A study of Homo sapiens with 8 samples.

Results

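The genes described here are 38 myeloid and leukocyte genes among the 39533 rows of a count table of 8 RNA libraries. They were taken by symbol from a list drawn up because many of them had counts in the libraries from blood, so their levels in those libraries are given as a description, with no test. All 38 have a row in the table, 33 had a count in some library and 5 were at 0 in all of them.

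The libraries came from HCT116 cells, an established human colorectal cancer line, in a model of tumour self-seeding, in which circulating tumour cells return to the tumour they left. The groups were circulating tumour cells from blood (CTC, n = 2), tumour self-seeded cells (TSC, n = 3) and primary tumour cells (PC, n = 3). TSC and PC were both taken from the primary tumour, and no treatment is named for any group. All groups share the parent line, the series title speaks of liver cancer, and the sources used here do not give the host animal or how the cells were sorted.

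Leukocytes carry the phosphatase CD45 on their surface and an actin-binding and guanine-exchange machinery that most other cells make little of. Macrophages depend on the transcription factor PU.1 and on the receptor for macrophage colony-stimulating factor, and they clear cells and particles through integrins, complement and Fc receptors and the phagocyte NADPH oxidase. Neutrophils fill their cytoplasm with S100A8 and S100A9 and their granules with proteases and antimicrobial proteins, while T and B cells are told by their antigen receptor complexes. In bulk RNA, fewer cells of a type and less RNA per cell cannot be told apart.

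Library totals were 957607 and 10524069 counts in CTC, 4578869 to 14717833 in TSC and 10864761 to 19264595 in PC. With 3 counts as the limit that a 0 allows, a gene at 0 could still stand at up to 3.13 CPM (the count per 1000000 counts of the library) in CTC replicate 1 and 0.285 CPM in CTC replicate 2, and at up to 0.156 to 0.655 CPM in the other libraries. These limits and the count intervals below cover counting error only. The epithelial marker EPCAM was at 594 and 544 CPM in CTC, 455 to 604 in TSC and 401 to 469 CPM in PC, and KRT19 was at 1031 and 1708 CPM in CTC, 1778 to 1905 in TSC and 1157 to 1537 CPM in PC. Among 11 epithelial genes 6 were tested and edgeR called 0 in CTC against PC, with 2 at an unadjusted p under 0.05. Of all 14255 tested genes 3.92% were called and 23.6% had an unadjusted p under 0.05, so nothing is read from these counts. VIL1 had 1 and 0 counts in CTC, and the intestinal genes KRT20, CDX1 and LGALS4 were at 0 in all 8 libraries. Nothing in the labels says that replicates came from separate animals, so a p-value here sets a difference against the spread of these libraries, part of which may be technical.

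The 38 genes held 0.118% and 0.0551% of the counts in CTC replicates 1 and 2, 0.0280% to 0.0282% in TSC and 0.0199% to 0.0225% in PC. Most of the share in TSC and PC came from 4 genes, CYBA, LYN, VAV1 and CD68. Without these 4 genes the share was 0.0966% and 0.0361% in CTC, 0.00117% to 0.00252% in TSC and 0.00117% to 0.00219% in PC. CTC replicate 1, the shallowest library, had counts for as many of the genes as CTC replicate 2, with 8 of 38 at 0 in each, against 17 to 23 at 0 in TSC and 13 to 23 at 0 in PC.

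In both CTC libraries 21 of the 38 genes lay above each of the 6 other libraries in CPM. Of all 22986 genes with a count 7.33% did so, and since blood libraries guided the choice of the 38, nothing is read from that difference. The 21 comprise 17 of the 23 genes with at least 20 counts over both CTC libraries (12.6% among all 11846 genes with as many), and CD53, NCF1, MPEG1 and TYROBP, which had 2 to 12 counts there. Without CTC replicate 1 the number was 22, and without CTC replicate 2 it was 27. With 1 CTC library the rule is easier to meet for every gene. The matching shares of all genes were not computed, so nothing is read from these 2 numbers.

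**Figure D1:**
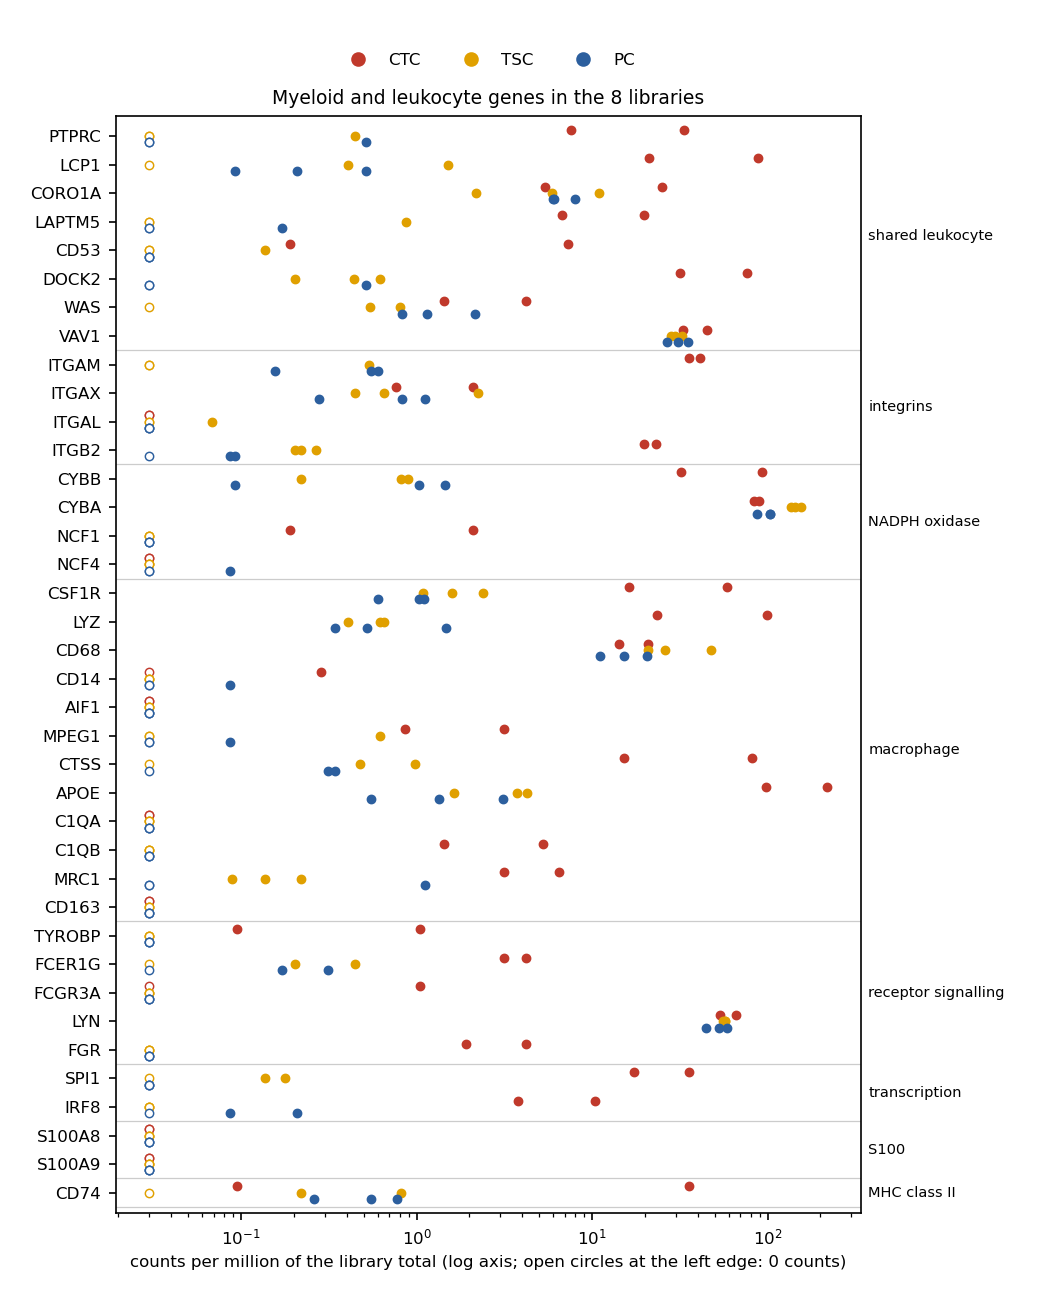
Level of each of the 38 genes in each of the 8 libraries, in CPM on a log axis, with open circles at the left edge for 0 counts and genes grouped by role. Both CTC points stand to the right of all TSC and PC points for 21 genes, while CYBA, LYN, VAV1 and CD68 have counts in every library.

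Genes shared by many leukocytes rank among the clearest examples. PTPRC, the gene of CD45, had 32 and 80 counts in CTC (33.4 and 7.60 CPM), against 0, 0 and 5 counts in TSC and 6, 0 and 0 counts in PC. LCP1, which encodes the actin bundler L-plastin, had 84 and 221 counts in CTC, 0, 6 and 17 in TSC and 6, 1 and 4 in PC. DOCK2, a guanine exchange factor gene for Rac in blood cells, had 73 and 334 counts in CTC, 2, 3 and 7 in TSC and 6, 0 and 0 in PC. For these 3 genes the CTC libraries do not overlap the others, and the few counts in the other groups sit in TSC replicate 3 and PC replicate 1 more than elsewhere. LAPTM5, a lysosomal membrane protein gene of blood cells, had 19 and 71 counts in CTC, 4, 0 and 0 in TSC and 2, 0 and 0 in PC, a CPM ratio of the pooled CTC to the pooled PC libraries of 164 (exact 95% interval 44.0 to 1373). CD53, a leukocyte tetraspanin gene, had 7 and 2 counts in CTC, 0, 2 and 0 in TSC and 0 in PC.

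The other genes of this group were also counted in the tumour libraries. VAV1, an exchange factor gene of haematopoietic cells, was at 44.9 and 33.0 CPM in CTC, 28.2 to 32.6 in TSC and 26.6 to 35.4 CPM in PC, so that CTC overlapped PC and lay just above TSC. CORO1A, the coronin gene of leukocytes, was at 25.1 and 5.42 CPM in CTC, 2.17 to 10.9 in TSC and 5.97 to 7.98 CPM in PC. Only CTC replicate 1 exceeded the other libraries there. WAS, the actin regulator gene of Wiskott-Aldrich syndrome, was at 4.18 and 1.43 CPM in CTC, 0 to 0.799 in TSC and 0.828 to 2.15 CPM in PC.

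ITGAM and ITGB2 were the integrin genes that stood above the other libraries in CTC. ITGAM, the CD11b chain of the complement receptor Mac-1 (chromosome 16, 31259975 to 31332877 in RefSeq's GRCh38.p14), had 34 and 432 counts in CTC, 0, 0 and 6 in TSC and 7, 6 and 3 in PC. Its partner ITGB2, the CD18 chain that all these integrins share, had 19 and 244 counts in CTC, 1, 3 and 3 in TSC and 1, 1 and 0 in PC (pooled ratio of CTC to PC 478, exact 95% interval 131 to 3972). Both genes had similar CPM in the CTC libraries, 35.5 and 41.0 for ITGAM and 19.8 and 23.2 for ITGB2. ITGAX, the CD11c chain of dendritic cells and some macrophages, was at 2.09 and 0.760 CPM in CTC, 0.444 to 2.24 in TSC and 0.276 to 1.12 CPM in PC, with overlap between all groups. ITGAL, the CD11a chain found on lymphocytes, had no count in CTC or PC and 1 count in TSC.

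Of the phagocyte NADPH oxidase, which makes superoxide, CYBB encodes the catalytic subunit (chromosome X, 37780059 to 37813461). CYBB had 89 and 338 counts in CTC, 1, 12 and 10 in TSC and 17, 1 and 20 in PC, or 92.9 and 32.1 CPM in CTC against at most 1.46 CPM in any other library. CYBA, the smaller membrane subunit that many cell types make, was at 83.5 and 89.0 CPM in CTC, 137 to 155 in TSC and 86.5 to 104 CPM in PC. CYBA levels in CTC therefore overlapped those in PC, and they lay below every TSC library. The cytosolic subunit gene NCF1 had 2 and 2 counts in CTC and none elsewhere, and its near-identical copies NCF1B and NCF1C share sequence with it, so its counts are uncertain. NCF4, another cytosolic subunit gene, had 1 count, in PC.

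Among macrophage genes APOE, the lipid carrier gene of macrophages and hepatocytes (chromosome 19, 44905796 to 44909393), had the most counts in CTC, 209 and 1036, against 17, 24 and 48 in TSC and 36, 6 and 26 in PC. Mean APOE levels were 158 CPM in CTC, 3.20 in TSC and 1.66 CPM in PC. LYZ, the lysozyme gene, had 95 and 245 counts in CTC, 3, 6 and 7 in TSC and 4, 16 and 10 in PC. CSF1R, the receptor for macrophage colony-stimulating factor, had 56 and 171 counts in CTC, 11, 16 and 18 in TSC and 7, 12 and 20 in PC. CTSS, a lysosomal cysteine protease gene of antigen-presenting cells, had 78 and 160 counts in CTC, 0, 7 and 11 in TSC and 4, 0 and 6 in PC. In all 4 genes the CTC libraries lay above the other libraries, and all 4 had more CPM in CTC replicate 1 than in replicate 2. MRC1, the mannose receptor gene, had 3 and 68 counts in CTC, 1, 2 and 1 in TSC and 13, 0 and 0 in PC. C1QB, a chain of the complement component C1q, had 5 and 15 counts in CTC and none in the other 6 libraries. MPEG1, the perforin-2 gene, had 3 and 9 counts in CTC, 0, 0 and 7 in TSC and 1, 0 and 0 in PC.

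Other macrophage genes had few counts or none. C1QA, whose product assembles with that of C1QB, was at 0 in all 8 libraries, as were AIF1, which encodes the calcium-binding protein IBA1, and CD163, the haemoglobin scavenger receptor gene. CD14, the lipopolysaccharide co-receptor gene, had 0 and 3 counts in CTC, none in TSC and 1 in PC. CD68, a lysosomal glycoprotein gene used as a macrophage marker, was at 20.9 and 14.2 CPM in CTC, 20.9 to 47.4 in TSC and 11.1 to 20.7 CPM in PC. Other genes in GENCODE 29 share 85.8% of the exon bases of CD68, partly on the other strand, and the strand setting of the counting is not known here. LYZ shares 34.0% of its exon bases with a gene on the other strand.

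Receptor and kinase genes varied in the same way, with FCER1G and FGR above the other libraries in CTC and LYN at a like level in all groups. FCER1G, the signalling chain of activating Fc receptors, had 3 and 44 counts in CTC, 0, 3 and 5 in TSC and 2, 0 and 6 in PC. TYROBP, the adaptor DAP12 that pairs with many myeloid receptors, had 1 and 1 counts in CTC and none elsewhere, beside 34 and 432 counts of ITGAM in the same CTC libraries. FCGR3A, the CD16 receptor gene, had 1 and 0 counts in CTC and none elsewhere. FGR, a Src-family kinase gene of myeloid cells, had 4 and 20 counts in CTC and none in TSC or PC. LYN, a related kinase gene of blood and epithelial cells, was at 65.8 and 53.9 CPM in CTC, 55.5 to 57.5 in TSC and 44.6 to 59.0 CPM in PC, with CTC overlapping both TSC and PC.

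SPI1, the gene of PU.1 (chromosome 11, 47354860 to 47378547), had 34 and 183 counts in CTC, 0, 2 and 2 in TSC and none in PC. Its mean of 26.4 CPM in CTC was at least 368-fold higher than in PC, taking 3 counts over the PC group as the floor (at least 494-fold by CTC replicate 1 alone and at least 242-fold by replicate 2 alone). IRF8, a transcription factor gene of monocytes and dendritic cells, had 10 and 40 counts in CTC, none in TSC and 1, 0 and 4 in PC. S100A8 and S100A9 were at 0 in all 8 libraries. CD74, the invariant chain of MHC class II, had 34 counts in CTC replicate 1 and 1 count in CTC replicate 2, against 1, 12 and 0 in TSC and 9, 6 and 5 in PC. Only CTC replicate 1 therefore stood apart for CD74, at 35.5 CPM against 0.0950 CPM in CTC replicate 2.

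Per kilobase of exon, the order of the genes in CTC was led by APOE, at 99.6 and 44.9 CPM per kb in replicates 1 and 2. LYZ followed in replicate 1 at 56.2 CPM per kb, and stood at 13.2 CPM per kb in replicate 2. CYBA was at 24.9 and 26.5 CPM per kb, CYBB at 21.0 and 7.26, SPI1 at 17.2 and 8.40, LCP1 at 17.3 and 4.15, and ITGAM at 6.24 and 7.22 CPM per kb. PTPRC, with its long transcript, was lower, at 3.64 and 0.829 CPM per kb, and the short TYROBP was at 1.15 and 0.105 CPM per kb. CYBA was thus the only member above 20 CPM per kb in PC, at a mean of 29.1 CPM per kb.

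The CTC libraries differed from each other in these genes. For the 17 genes with at least 20 CTC counts and both CTC libraries above the rest, the ratio of CPM in replicate 1 over replicate 2 had a median of 2.75 and ran from 0.485 for MRC1 to 5.36 for CTSS. Its exact 95% counting interval lay above 1 for 12 of them and spanned 1 for 5. The ratio was 4.40 for PTPRC (2.82 to 6.70), 4.26 for LYZ (3.33 to 5.42) and 4.18 for LCP1 (3.21 to 5.39). It was 0.865 for ITGAM (0.591 to 1.23) and 0.856 for ITGB2 (0.506 to 1.37), and these intervals do not overlap those of PTPRC, LYZ and LCP1. By counting error alone, the genes thus did not keep 1 ratio between the libraries. Over all genes the CTC libraries also differed by more than counting error (chi-square per degree of freedom of 8.84), a spread that these intervals leave out. CD74 lay far outside the range of the 17 genes, at 374 (62.7 to 15187). HBB, the β-globin gene of red cells, was at 171 and 208 CPM in CTC, at most 0.476 in TSC and at most 0.773 CPM in PC, and thus had the higher CPM in replicate 2.

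**Figure D2:**
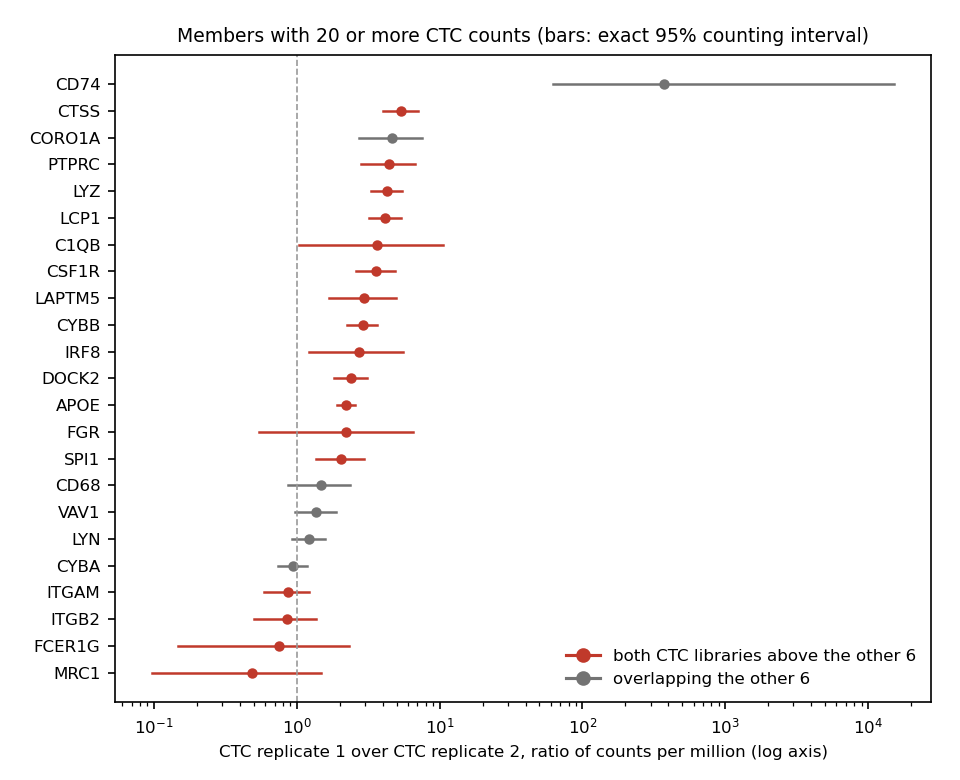
Ratio of CPM in CTC replicate 1 over CTC replicate 2 on a log axis for the 23 genes with at least 20 CTC counts, with bars for the exact 95% counting interval. Most genes that stand above the other libraries in CTC lie right of 1, ITGAM, ITGB2, FCER1G and MRC1 lie left of 1 with intervals that span it, and CD74 stands alone at 374.

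Other genes of the leukocyte lineages were examined from 8 lists of 149 genes, none of them among the 38, to ask which blood cells the CTC counts resemble. No library had a count for 53 of the 149, and 50 entered edgeR's quasi-likelihood test. Of these 50, 27 did not pass the filter on low counts when it was applied to the TSC and PC libraries alone. That filter asks for a sufficient count in more libraries than the filter on all 8, so some of the 27 were not tested because of CTC. FLT3, for example, had 0 counts in both CTC libraries. For the many whose counts lie mostly in CTC, passing through CTC largely sets the direction of the test. Those of the 27 named below are given as values, with no test. Of the 23 that pass on the TSC and PC libraries alone, 2 rose and 2 fell in CTC against PC (p adjusted by Benjamini-Hochberg, under 0.05). Among all 14255 tested genes 3.92% were called, 1.4% as higher and 2.52% as lower. Of all 50, 13 were called higher in CTC than in PC, and 11 of these 13 did not pass on TSC and PC alone. Compared with TSC, where 0.898% of all tested genes were called (0.526% as higher and 0.372% as lower), 11 of the 50 were called higher in CTC and 1 lower, with the same limit. Against PC the total number of calls among the 50 was 15, beside 559 among all tested genes. It was 9, 8 and 8 without PC replicates 1, 2 and 3, with 48 list genes tested each time, beside 177, 182 and 154 among all genes. With the replicate number as a block it was 9, beside 261 among all genes. The number also fell without CTC replicate 2, as it did for all genes, but 1 CTC library is then left. Nothing particular to the lists is read from these falls.

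Among macrophage and monocyte genes PLEK, the pleckstrin gene of phagocytes and platelets, had 73 and 276 counts in CTC, 0, 1 and 3 in TSC and none in PC. That is at least 713-fold higher in CTC than in PC by the mean, at least 1062-fold by CTC replicate 1 alone and at least 365-fold by replicate 2 alone. VSIG4, a complement receptor gene of tissue macrophages, had 12 and 41 counts in CTC and none elsewhere. Both passed the filter only through CTC. MERTK, a receptor gene for the uptake of dead cells, was at 7.31 and 11.3 CPM in CTC, 3.55 to 6.33 in TSC and 3.43 to 7.81 CPM in PC and was not called (log2 fold change over PC 0.80 ± 0.47 SE, edgeR adjusted p = 0.317). In this list of 27 genes TREM2, CLEC7A, CSF2RA and CSF2RB were at 0 in all libraries.

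Of 29 genes shared among leukocytes 8 pass the filter on TSC and PC alone. FERMT3, the integrin activator kindlin-3, was at 30.3 and 11.3 CPM in CTC, 0.218 to 1.60 in TSC and 0.276 to 1.46 CPM in PC, and it rose in CTC over PC (log2 fold change 4.22 ± 0.76 SE, edgeR adjusted p = 0.00975, and 0.0673 without CTC replicate 2). PLCG2, a phospholipase gene with counts in every library, was not called (0.26 ± 0.24, edgeR adjusted p = 0.556). NCKAP1L, MYO1F, HCLS1 and FYB1 did not pass on TSC and PC alone. NCKAP1L, the HEM1 subunit of an actin-regulating complex, was at 35.5 and 15.3 CPM in CTC, 0.612 to 1.95 in TSC and 0.467 to 0.736 CPM in PC. MYO1F, a class I myosin gene of immune cells, was at 28.2 and 15.8 CPM in CTC, 0.437 to 0.883 in TSC and 0.0519 to 0.773 CPM in PC. HCLS1 had 15 and 102 counts in CTC, and FYB1 had 9 and 12 in CTC and none elsewhere. The remaining genes of the list that pass on TSC and PC alone were not called by edgeR in CTC against PC. Their log2 fold changes were 2.47 for DOCK11, 1.71 for ARHGDIB, −0.81 for SYK, −0.44 for RUNX3, −0.39 for RAC2 and −0.09 for PTPN6. INPP5D, CD48 and EVI2B were at 0 in all libraries. CD52 and SELPLG had no count in CTC, against 3, 1 and 0 and 5, 0 and 5 counts in PC.

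Neutrophil genes summed to 21.9 and 14.5 CPM in CTC, 0.204 to 0.710 in TSC and 0.519 to 0.828 CPM in PC, from few genes. Of 23 genes 15 had no count in any library, including the granule genes MPO, PRTN3, AZU1, LTF and CAMP and the receptor genes CSF3R and CXCR1. None of the list pass the filter on TSC and PC alone. ARG1, the arginase gene, had 13 and 85 counts in CTC, 0, 0 and 3 in TSC and none in PC, at least 151-fold higher in CTC than in PC (at least 189-fold by CTC replicate 1 alone and at least 112-fold by replicate 2 alone). ELANE, the elastase gene, had 0 and 4 counts in CTC. ALOX5AP, which macrophages also express, had 3 and 38 counts in CTC, none in TSC and 0, 0 and 5 in PC.

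Of 47 T, B and NK cell genes 9 were tested, and in CTC against PC none of the 9 was called higher by edgeR. In that comparison 1.4% of all tested genes were called higher, 2.52% were called lower and 23.6% had an unadjusted p under 0.05. With so few genes tested, the absence of a call is not read as a result. Of 20 T cell genes 5 were tested and 2 fell in CTC, TCF7 (log2 fold change over PC −1.45 ± 0.26 SE, edgeR adjusted p = 0.0105) and BCL11B (−2.09 ± 0.49, edgeR adjusted p = 0.0323), transcription factor genes that the tumour libraries also contain. LCK, the T cell kinase gene, was at 0 and 0.570 CPM in CTC, 4.15, 5.30 and 7.01 CPM in TSC and 0.343, 0.644 and 0.727 CPM in PC. LCK was higher in TSC than in PC (log2 fold change 3.27 ± 0.63 SE, edgeR adjusted p = 0.0334), but the call was lost without TSC replicate 2 or 3 or any single PC replicate (edgeR adjusted p = 0.0586 to 0.232). With the replicate block the adjusted p was 0.0625. Its difference between CTC and PC was not called (−0.26 ± 0.90, edgeR adjusted p = 0.89). CD3E, CD3G, CD2, ZAP70 and TRAC were at 0 in all 8 libraries, while CD3D had 0 and 7 counts in CTC and none elsewhere, and CD247 had 0 and 8 in CTC, none in TSC and 2 in PC. CD5 had 1 count and CD8A 1 count in CTC, both in replicate 1. Of 15 B cell genes 2 were tested and edgeR called 0, with 1 at an unadjusted p under 0.05, and MS4A1 (CD20) had 0 and 4 counts in CTC and none elsewhere. BLNK had 0 and 17 counts in CTC, PAX5 had 4 and 3, and BANK1 had 6 and 50, where the tumour libraries had 2 to 7, 0 to 7 and 38 to 125 counts of each in that order. EBF1, a B lineage transcription factor gene, had 10 counts in CTC replicate 1 and none in any other library. NK cell genes had 2 of 12 tested and 0 called by edgeR or at an unadjusted p under 0.05. EOMES, tested there, was at 7.31 and 3.52 CPM in CTC, 2.40 to 3.71 in TSC and 1.71 to 4.12 CPM in PC (edgeR adjusted p = 0.434). Of 14 dendritic, mast cell and eosinophil genes 9 were at 0 in all libraries, and of the 3 tested edgeR called 0, with 0 at an unadjusted p under 0.05.

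Of the MHC class II genes, HLA-DQA1, HLA-DRB1 and HLA-DQB1 were higher in CTC replicate 1 than in CTC replicate 2, as CD74 was, while CIITA was not. HLA-DQA1 had 19 and 0 counts in CTC, 4, 0 and 0 in TSC and none in PC, and HLA-DRB1 had 8 and 1 counts in CTC, 0, 2 and 0 in TSC and 0, 5 and 0 in PC. HLA-DQB1, at 17.8 and 0.855 CPM in CTC, 2.40 to 4.35 in TSC and 2.76 to 3.61 CPM in PC, was not called (edgeR adjusted p = 0.467). CIITA, the master regulator gene of the class, had 0 and 9 counts in CTC, 0, 6 and 4 in TSC and 3, 0 and 7 in PC, and its 0.855 CPM in CTC replicate 2 exceeded every TSC and PC library. HLA-DPA1, HLA-DMA and HLA-DMB were at 0 in all libraries. The 9 genes summed to 49.1 and 1.81 CPM in CTC, 3.26 to 5.24 in TSC and 3.41 to 3.95 CPM in PC. HLA genes are variable and alike in sequence, so their counts are uncertain.

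Markers of other cells in blood and tumour moved unevenly with these genes. Besides HBB, the erythroid genes ALAS2 and SLC4A1 had 27 and 401 counts and 3 and 55 counts in CTC, against 9 and 0 counts over all of PC, and all 3 passed the filter only through CTC. The 16 erythroid genes summed to 272 and 342 CPM in CTC, 86.0 to 104 in TSC and 79.8 to 97.7 CPM in PC, while KLF1 and GATA1 were at 0. HBD, the δ-globin gene, was at 55.3 and 78.2 CPM in CTC and 78.8 to 89.5 CPM in TSC, against 50.2 to 63.3 CPM in PC. Platelet genes summed to 6.27 and 6.84 CPM in CTC, 0 to 1.77 in TSC and 1.75 to 2.06 CPM in PC, with PF4, PPBP and GP9 at 0, and ITGB3 led them with 1 and 52 counts in CTC. TUBB1 had 2 and 3, GP1BA 1 and 1 and TREML1 1 and 0 counts in CTC. The whole platelet list had 6 counts in CTC replicate 1, and ITGB3 shares 51.6% of its exon bases with other annotated genes. Endothelial genes summed to 45.9 and 45.2 CPM in CTC, 49.2 to 55.0 in TSC and 47.0 to 58.7 CPM in PC, with 2 and 32 counts of VWF, 1 and 0 of PECAM1 and 1 and 0 of TEK in CTC, and fibroblast genes summed to 16.7 and 7.70 CPM in CTC, 8.74 to 111 in TSC and 29.3 to 71.1 CPM in PC. Whether the CTC counts of the 38 genes come from host leukocytes, from human cells or from the tumour cells themselves was not tested.

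**Figure D3:**
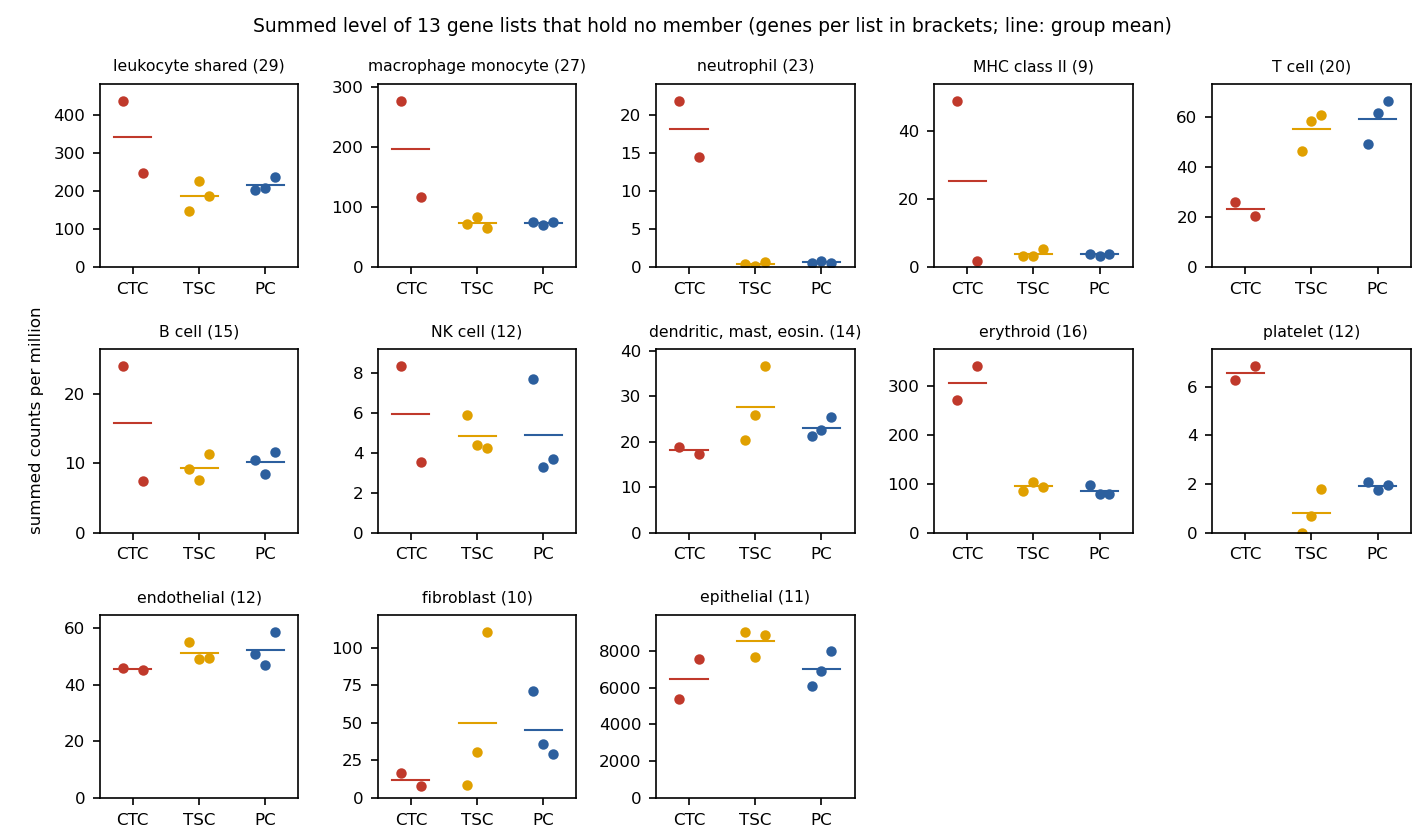
Summed CPM of 13 lists that hold none of the 38 genes, with a point for each library, a line at the group mean, and the number of genes in brackets. Neutrophil, platelet, macrophage, shared leukocyte and erythroid lists are higher in both CTC libraries than in any other library. The platelet list rests on 6 counts in CTC replicate 1. The neutrophil list is at 21.9 and 14.5 CPM in CTC, 0.204 to 0.710 in TSC and 0.519 to 0.828 in PC. The MHC class II list is high in CTC replicate 1 alone (49.1 against 1.81 CPM in replicate 2), and the T cell list is lowest in CTC.

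A search of the whole table, without regard to function, found 62 genes with at least 1 count in each CTC library, at least 10 over both and at most 3 over all 6 TSC and PC libraries (Y-linked genes and XIST were left out). FGR and C1QB are the members among them, and 14 of the 62 belong to the 38 genes or to a list above. By counts in CTC the leading genes were PLXDC2, with 25 and 263 counts, TRPS1 with 14 and 101, MARCHF1 with 12 and 100 and ACKR3 with 4 and 95. MARCHF1 encodes a ubiquitin ligase that removes MHC class II from the cell surface, and ACKR3 a scavenging chemokine receptor. ARG1, APBB1IP, TXNIP, EDNRB, SLC4A1, KLHL6, F13A1, VSIG4, BASP1, SLC28A2 and ABCD2 complete the leading 15. APBB1IP encodes the talin-binding adaptor RIAM of blood cells, and F13A1 the A chain of coagulation factor XIII in platelets and macrophages.

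The genes were chosen with earlier results of these data known, so the comparison of TSC with PC is not independent of the choice. In this comparison, a contrast not used directly to choose the genes, 24 members entered the test. Of these, 16 did not pass the filter on TSC and PC alone, with 0 to 73 counts over all TSC and PC libraries. That filter asks for a sufficient count in more libraries than the filter on all of them. Failing it therefore does not mean that a gene was tested only through CTC. WAS and ITGAX, with 73 counts each in TSC and PC, were among the 16. The 8 that pass on TSC and PC alone are CORO1A, VAV1, CYBB, CYBA, CSF1R, CD68, APOE and LYN. EdgeR called 0 of the 24, where 0.505% of all tested genes were called (0.224% as higher and 0.281% as lower). It called 0 of the 8 when only TSC and PC were fitted, with 2 of the 8 at an unadjusted p under 0.05. In that fit 128 of all 13231 tested genes were called and 1643 had an unadjusted p under 0.05. In the fit of all libraries CYBA and CD68, which pass on TSC and PC alone, had an unadjusted p under 0.05, beside 10.3% of all tested genes. SPI1 and ITGB2 also had such a p, but they did not pass on TSC and PC alone. SPI1 had 4 counts over TSC and none in PC, and ITGB2 had 7 and 2, so nothing is read from these p-values. DESeq2's Wald test called 1 member (CYBA). CYBA was at 155, 137 and 144 CPM in TSC, against 104, 86.5 and 103 CPM in PC, so the groups did not overlap (log2 fold change 0.62 ± 0.16 SE, edgeR adjusted p = 0.135, and 0.0297 by DESeq2). CD68 was at 26.0, 47.4 and 20.9 CPM in TSC, against 11.1, 15.3 and 20.7 CPM in PC (1.06 ± 0.32, edgeR adjusted p = 0.232, and 0.0104 with no filter on low counts; the fold change was 0.59 without TSC replicate 2).

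**Figure D4:**
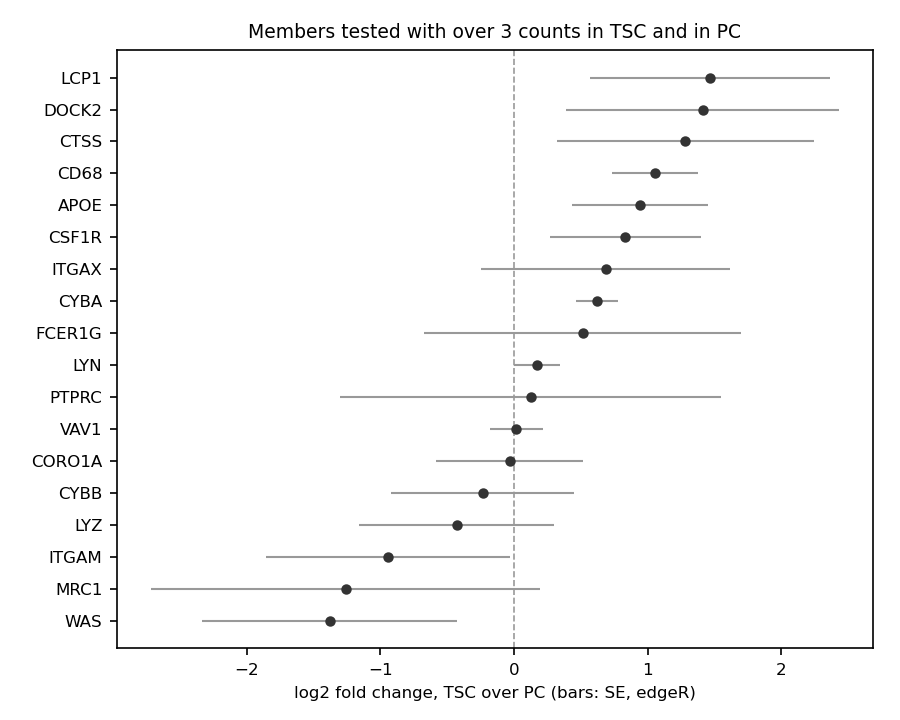
Log2 fold change of TSC over PC with its SE (edgeR) for the 18 tested genes with more than 3 counts in both groups. The values run from −1.38 for WAS to 1.47 for LCP1, 0 of the 18 passed the adjusted threshold, and 8 of them pass the filter on low counts without CTC.

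PU.1 binds a core with the letters GAGGAA, and the promoters of the genes were read for it because SPI1 and many known PU.1 target genes were counted in CTC. Windows of 250 bases before to 50 after the start site were known for 28 of the 38 genes (RefSeq, GRCh38.p14). The hexamer, on either strand, occurred in a window of 20 of these 28 genes (71.4%), against 31.8% of all 27305 genes with a window, although some genes have several windows. By single windows the shares were 53.5% of 43 for the members and 27.9% of 35116 for all. It was found in 7 of the 12 matched genes that had at least 20 CTC counts and stood above all other libraries in CTC, in 10 of the 11 with fewer than 20 CTC counts and in 3 of the other 5. For the sequences below, the window of each gene with the most hexamers in the 150 bases before the start site was taken. All genes shown hold the hexamer and none without it is shown, so its presence there is not a result. The 150 bases before the start site are shown for 4 genes counted in CTC (ITGAM, CYBB, DOCK2 and CSF1R) and for 2 with at most 1 count per CTC library (TYROBP and AIF1). They run 5′ to 3′ on the strand of the gene, with the hexamer or its reverse complement in capitals. They lie at chr16:31259825-31259974 (+), chrX:37779909-37780058 (+), chr5:169637125-169637274 (+), chr5:150086555-150086704 (−), chr19:35908296-35908445 (−) and chr6:31615084-31615233 (+) in that order.
ITGAM: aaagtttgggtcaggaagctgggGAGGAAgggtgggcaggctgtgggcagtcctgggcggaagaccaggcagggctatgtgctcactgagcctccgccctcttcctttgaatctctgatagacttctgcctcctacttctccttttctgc
CYBB: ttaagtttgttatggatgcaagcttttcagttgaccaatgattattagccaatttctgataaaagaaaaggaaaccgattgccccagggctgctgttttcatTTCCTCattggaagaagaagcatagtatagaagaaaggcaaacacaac
DOCK2: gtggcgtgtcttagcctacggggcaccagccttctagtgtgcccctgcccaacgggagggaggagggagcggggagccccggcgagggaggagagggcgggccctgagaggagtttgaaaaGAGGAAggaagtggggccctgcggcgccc
CSF1R: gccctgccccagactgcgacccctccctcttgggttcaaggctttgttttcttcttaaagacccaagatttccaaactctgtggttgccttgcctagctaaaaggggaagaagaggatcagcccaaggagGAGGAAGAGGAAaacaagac
TYROBP: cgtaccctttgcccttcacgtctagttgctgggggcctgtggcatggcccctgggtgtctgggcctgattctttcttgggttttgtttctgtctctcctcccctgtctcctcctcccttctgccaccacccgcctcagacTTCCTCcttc
AIF1: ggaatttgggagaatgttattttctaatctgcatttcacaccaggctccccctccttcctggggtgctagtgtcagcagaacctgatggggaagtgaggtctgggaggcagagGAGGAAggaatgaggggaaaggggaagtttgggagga

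The hexamer starts 127 bases before the start site in ITGAM, 48 in CYBB, 29 in DOCK2, 20 and 14 in CSF1R, 10 in TYROBP and 37 in AIF1. CSF1R is shown at its downstream start site, where the hexamer stands in tandem. A match of letters is a description and does not show that PU.1 was bound there.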

How the data were processed

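RNA of 8 libraries, grouped by title, was depleted of ribosomal RNA and sequenced, per the labels' protocols. The authors deposited 1 table of whole-number counts per gene, not normalized. Per the submitters' processing notes, STAR 2.5.3a and featureCounts 1.5.3 were used with hg38, while the sources used here do not give the annotation, the strand setting or any removal of host reads. No row lacks a gene name, and all 8 columns of libraries were mapped.

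CPM is the count per 1000000 counts of the library. The test was edgeR's quasi-likelihood test (edgeR 4.0.16, R 4.3.3; glmQLFit, glmQLFTest), with TMM factors and the filterByExpr filter, in 1 fit of all 8 libraries, with 14255 genes tested, Benjamini-Hochberg adjustment over all of them and calls under 0.05. Exon lengths and overlaps are from GENCODE 29. The scripts were tested on simulated counts. Alternatives were DESeq2 size factors, no filter, a stricter filter, DESeq2 1.42.0, only the 2 groups compared, the replicate number as a block and each library left out, and for the shares of counts other gene sums and totals. Pairs of replicates differed by more than sampling noise (chi-square per degree of freedom of 8.48 or more).

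The members and lists were chosen with earlier results of these data known. All members are accounted for, with values per library for those with at least 20 CTC counts, and the rest mostly by count. From the other lists up to 4 genes with the most CTC counts and a higher mean CPM in CTC than in PC were to be named, with defining markers at 0, and the 15 genes restricted to CTC with the most counts. HCLS1, FYB1, TCF7, BCL11B, LCK and MS4A1 were named after their values were seen. So were DOCK11, ARHGDIB, SYK, RUNX3, RAC2, PTPN6, CD52 and SELPLG. Some genes that the rule gives are not reported here.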

Additional observations from a re-analysis of the deposited data

How the results depend on the processing

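The count of called genes moved with the setting in every comparison. For TSC against PC the 72 calls became 355 with no filter, 191 with DESeq2's test and 128 with only the libraries of the 2 groups, and 10 (without PC replicate 2) to 153 (without TSC replicate 2) when single libraries were left out. It was 142 and 134 without CTC replicates 1 and 2, 16 without TSC replicate 3 and 25 and 30 without PC replicates 1 and 3. Among the 38 genes, 1 was called with no filter and 1 with DESeq2's test, and 0 in each of the other fits, single libraries left out included, although the fit of TSC and PC alone tested 8 of the 38, against 24 with all libraries. For CTC against PC the 559 calls became 1535, 1125 and 1409 in the same order, 261 with the replicate block, and 35 (without CTC replicate 2) to 1575 (without TSC replicate 1). It was 1054 and 285 without TSC replicates 2 and 3, and 177, 182 and 154 without PC replicates 1, 2 and 3. For CTC against TSC the 128 calls became 728, 390 and 82, 61 with the replicate block, and 36 (without TSC replicate 3) to 696 (without TSC replicate 1), with 48 without CTC replicate 2 and 76 and 66 without PC replicates 1 and 2. Of the 149 other leukocyte genes, 15 were called in CTC against PC, and 11 of these did not pass the filter on TSC and PC alone. The number was 9 with the replicate block and 8 to 22 without single TSC or PC libraries. The cause of these moves was not tested.

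No pairing by replicate number was seen between TSC and PC. Deviations from the group means of same-numbered TSC and PC libraries correlated at 0.0328, −0.134 and 0.0943, and those of differently numbered ones at −0.172 to 0.167. With so few libraries per group this check cannot exclude pairing. With the replicate block TSC against PC gave 67 calls. The share of counts in the 38 genes, 0.0281% in TSC and 0.0212% in PC, became 0.00175% and 0.00156% without CYBA, LYN, VAV1 and CD68, and 0.0285% in TSC when mitochondrial and small noncoding rows were left out of the total. Without single libraries it lay at 0.0551% to 0.118% in CTC, 0.0281% to 0.0282% in TSC and 0.0207% to 0.0219% in PC. The number of genes with CTC above TSC and PC was 21 to 27 without single libraries, an alternative chosen after the data were seen. No matching share of all genes was computed for it. Depth limits the low genes most in CTC replicate 1, where 1 count is worth more than 1 CPM.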
